A study of Mus musculus with 2 samples.

Results

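The 8 genes described here, H19, Dlk1, Meg3, Rian, Peg3, Mest, Plagl1 and Grb10, are imprinted genes with known roles in fetal growth, chosen by name from the 32285 genes of the matrices. They were followed as UMI counts and as shares of cells with a UMI in skin of E14.5 mouse embryos, measured by droplet-based sequencing of the 3′ ends of RNA from single cells. A UMI is a molecular barcode, so that each count stands for 1 captured RNA molecule. The Wntless mutant library came from embryos of a cross between K14Cre and Wntless fl/fl mice. The wildtype library came from their littermates, and the alleles those carried beyond the label are not given in the sources used here. K14Cre is driven by the keratin 14 promoter, which is active in epidermal keratinocytes, so the dermal cells described below are not the cells in which the driver acts. Dorsolateral and flank skin of 2 to 3 embryos was pooled for each genotype, which left 1 library per genotype, no measure of the spread between embryos and no test of any difference. All intervals below are exact 95% intervals for counting error only.

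Imprinted genes are transcribed mainly from the copy inherited from 1 parent, as set by DNA methylation laid down in the germ line. Many of them act on fetal growth, and the genes described here are expressed together in many fetal tissues and decline after birth, which is why they are grouped as a network. Plagl1, a zinc-finger transcription factor that can arrest the cell cycle, has been placed upstream of several of the others in mouse. Dlk1 is a membrane protein with EGF repeats that restrains the maturation of fat cell precursors, and Meg3 and Rian are noncoding RNAs of the same chromosome region, transcribed from the maternal copy where Dlk1 is transcribed from the paternal one. H19 is a maternally expressed noncoding RNA that lies next to the growth factor gene Igf2. Grb10 is an adaptor protein that dampens signalling from the insulin and IGF receptors, Mest belongs to the alpha/beta hydrolase family, and Peg3 is a zinc-finger protein. The counts do not show which parental copy a molecule came from.

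In GRCm38 coordinates the GENCODE annotation places H19 at chr7:142575529-142578143 on the minus strand and Peg3 at chr7:6703892-6730431 on the minus strand. The region on chromosome 12 holds Dlk1 at chr12:109452823-109463336, Meg3 at chr12:109541001-109571726 and Rian at chr12:109603940-109661716, all on the plus strand. Mest lies at chr6:30723547-30748465 on the plus strand, Plagl1 at chr10:13060504-13131694 on the plus strand and Grb10 at chr11:11930508-12038683 on the minus strand. Among the genes counted in the matrices, those that overlap a member are Copg2 and the antisense RNA Gm44296, both on the strand opposite Mest, with 1453 and 19 UMIs over the dermal cells of both libraries, where Mest had 77291. Whether strand was used in counting is not given in the sources used here.

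H19 and Mest each host 1 microRNA hairpin in the RefSeq table for GRCm38.p6, which also places 1 hairpin inside Meg3 and 3 inside Rian, not printed here. The mature arms from H19 and Mest are shown as examples of small RNAs hosted by these genes, with the seed, bases 2 to 8, in capitals. The 3′ libraries count the host transcripts and not the mature microRNAs.
mmu-miR-675-5p: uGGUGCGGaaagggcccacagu
mmu-miR-675-3p: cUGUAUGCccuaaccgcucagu
mmu-miR-335-5p: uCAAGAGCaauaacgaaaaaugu
mmu-miR-335-3p: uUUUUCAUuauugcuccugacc
The 4 seeds differ from each other. miR-675 lies inside H19, with its 5p arm at chr7:142577112-142577133 and its 3p arm at chr7:142577078-142577099 on the minus strand. miR-335 lies inside Mest, with its 5p arm at chr6:30741314-30741336 and its 3p arm at chr6:30741354-30741375 on the plus strand.

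The promoter windows of Plagl1 and Dlk1, the pair of members whose counts rose and fell together most closely over dermal cells, and of Peg3, the member that varied least with dermal position, are shown for comparison. Each runs over 300 bases, starting 250 bases before the RefSeq transcript start, and was taken from the RefSeq table for GRCm38.p6. Capitals mark GGGGCCCC, a palindrome of the kind that the Plagl1 protein is known to bind.
Plagl1, chr10:13090582-13090881, plus strand: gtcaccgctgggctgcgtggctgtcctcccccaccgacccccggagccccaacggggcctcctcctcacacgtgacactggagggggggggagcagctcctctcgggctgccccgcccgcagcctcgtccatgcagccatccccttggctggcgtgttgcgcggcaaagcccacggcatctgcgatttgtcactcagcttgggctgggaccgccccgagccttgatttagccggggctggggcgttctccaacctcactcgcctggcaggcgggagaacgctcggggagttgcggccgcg
Dlk1, chr12:109452573-109452872, plus strand: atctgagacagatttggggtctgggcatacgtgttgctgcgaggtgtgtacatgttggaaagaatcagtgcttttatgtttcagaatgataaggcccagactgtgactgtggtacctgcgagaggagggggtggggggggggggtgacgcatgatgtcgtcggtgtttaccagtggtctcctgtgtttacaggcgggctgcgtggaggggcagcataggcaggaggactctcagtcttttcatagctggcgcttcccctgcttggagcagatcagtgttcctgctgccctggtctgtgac
Peg3, chr7:6730370-6730669, minus strand: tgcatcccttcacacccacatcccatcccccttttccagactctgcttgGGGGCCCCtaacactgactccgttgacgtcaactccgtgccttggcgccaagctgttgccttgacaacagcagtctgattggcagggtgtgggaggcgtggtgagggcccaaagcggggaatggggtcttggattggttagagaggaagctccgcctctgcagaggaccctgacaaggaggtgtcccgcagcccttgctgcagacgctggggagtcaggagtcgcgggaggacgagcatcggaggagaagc
The Peg3 window holds GGGGCCCC at position 50 from its 5′ end, and the Plagl1 and Dlk1 windows shown do not hold it. Over the table, 354 of 32851 windows (1.08%) hold it, and so does 1 of the 11 windows of the 7 members listed there. It was 1 of 7 motifs searched on both strands. The other motifs, with the share of all windows that hold each, were GGGGC (60.8%, and part of GGGGCCCC), GCCAT (40.5%), CCAAT (37.4%), GGGCGG (35.7%), TATAAA (13.6%) and CACGTG (7.15%). The Plagl1 window holds each of these 6 but CCAAT and TATAAA. The Dlk1 window holds GGGGC as its only match. The Peg3 window holds GGGGC and CCAAT beside the palindrome. A match describes letters in a window and not a site in use.

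The mutant library held 10449 cell barcodes with a median of 14602 UMIs, and the wildtype library held 9065 with a median of 11341. Dermal cells were those on the authors' lists, 5028 mutant and 5300 wildtype cells with medians of 15566 and 11154 UMIs, so levels are given as CPM, UMIs per 1000000 UMIs of the class, and shares of positive cells after thinning each cell to 5000 UMIs. The libraries shared 19 barcodes, 4 of them on both dermal lists. Wls, the gene that encodes Wntless, had 6.14 CPM in mutant epidermis-like cells, against 131 CPM in wildtype ones, and 77.0 CPM in mutant dermal cells, against 91.8 CPM in wildtype ones. A 3′ tag need not lie in the removed part of a floxed gene, so this compares transcript levels only. The dermal cells carried the fibroblast genes Col1a1, Col1a2 and Col3a1 at 4728, 5852 and 5827 CPM in the mutant, against 3143, 3929 and 4205 CPM in the wildtype. Of the marker lists of other cell types summed over the dermal cells, the highest was the erythroid list, at 1162 CPM in the mutant, against 423 CPM in the wildtype, and its part in the results was not tested.

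All 8 genes were abundant in the embryonic dermis, and H19 differed most between the libraries. H19 had 802 CPM (796 to 808) in mutant dermal cells, against 525 CPM (519 to 530) in wildtype dermal cells, a log2 ratio of 0.61 (0.59 to 0.63). It was the only member at least 1.5-fold apart, in a comparison in which 10.9% of the 15609 measured genes were at least 1.5-fold higher in the mutant and 5.64% at least 1.5-fold lower. Measured means 20 or more UMIs over both libraries. The H19 ratio was 0.55 when fibroblast-like clusters replaced the lists and 0.45 with the clusters shared by the libraries weighted alike, both under 1.5-fold. Without the clusters nearly of 1 library it was 0.55, and that of Plagl1 was 0.61, past 1.5-fold. Over all alternatives run, the Plagl1 ratio ranged from 0.06 to 0.61. With the authors' lists Grb10 and Plagl1 came closest to the 1.5-fold threshold. Grb10 had 237 CPM in mutant cells and 163 CPM in wildtype cells, a log2 ratio of 0.55 (0.51 to 0.58). Plagl1 had 290 CPM in mutant cells and 199 CPM in wildtype cells, a log2 ratio of 0.54 (0.51 to 0.57). Both values rest on over 10000 UMIs per library, so counting error is small, while the spread between embryos is unknown.

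The genes of the chromosome 12 region and Mest were higher in the mutant library by smaller amounts. Dlk1 had 2242 CPM in mutant cells and 1699 CPM in wildtype cells, a log2 ratio of 0.40 (0.39 to 0.41). Meg3 had 1995 CPM in mutant cells and 1669 CPM in wildtype cells, a log2 ratio of 0.26 (0.25 to 0.27). Its neighbour Rian moved by a like amount, with 380 CPM in mutant cells, 322 CPM in wildtype cells and a log2 ratio of 0.24 (0.22 to 0.27). Mest had 573 CPM in mutant cells and 489 CPM in wildtype cells, a log2 ratio of 0.23 (0.21 to 0.25). Peg3 was nearly level, at 1428 CPM in mutant cells and 1395 CPM in wildtype cells, a log2 ratio of 0.03 (0.02 to 0.05). The median over the 8 members was 0.33, beside 0.03 over all measured genes.

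At equal depth H19, Grb10 and Plagl1 also had the widest gaps in the share of dermal cells with a UMI. H19 was found in 88% of mutant cells (87.0 to 88.9) and 70.5% of wildtype cells (69.3 to 71.8). Grb10 was found in 64.2% of mutant cells and 51.1% of wildtype cells, and Plagl1 in 45.8% of mutant cells and 35% of wildtype cells. Dlk1, at 95% in the wildtype, and Meg3 and Peg3, at 97.9% each there, were already found in nearly all cells. Mest was found in 80.4% of mutant cells and 74.4% of wildtype cells, and Rian in 77.5% of mutant cells and 70.2% of wildtype cells. In macrophage-like cells, in which free RNA and doublets are possible sources of these UMIs, the 8 shares lay between 3.14% and 18.1% in the mutant and between 8.15% and 25.4% in the wildtype at the same depth. For Meg3 the intervals of the libraries overlapped. Intervals from this many cells are narrow, and the share of all genes with intervals apart was not computed. Without thinning, H19 was found in 97.6% of mutant cells and 84.0% of wildtype cells. A typical dermal cell had UMIs of a median of 7 of the 8 members in the mutant and 6 in the wildtype.

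**Figure D1:**
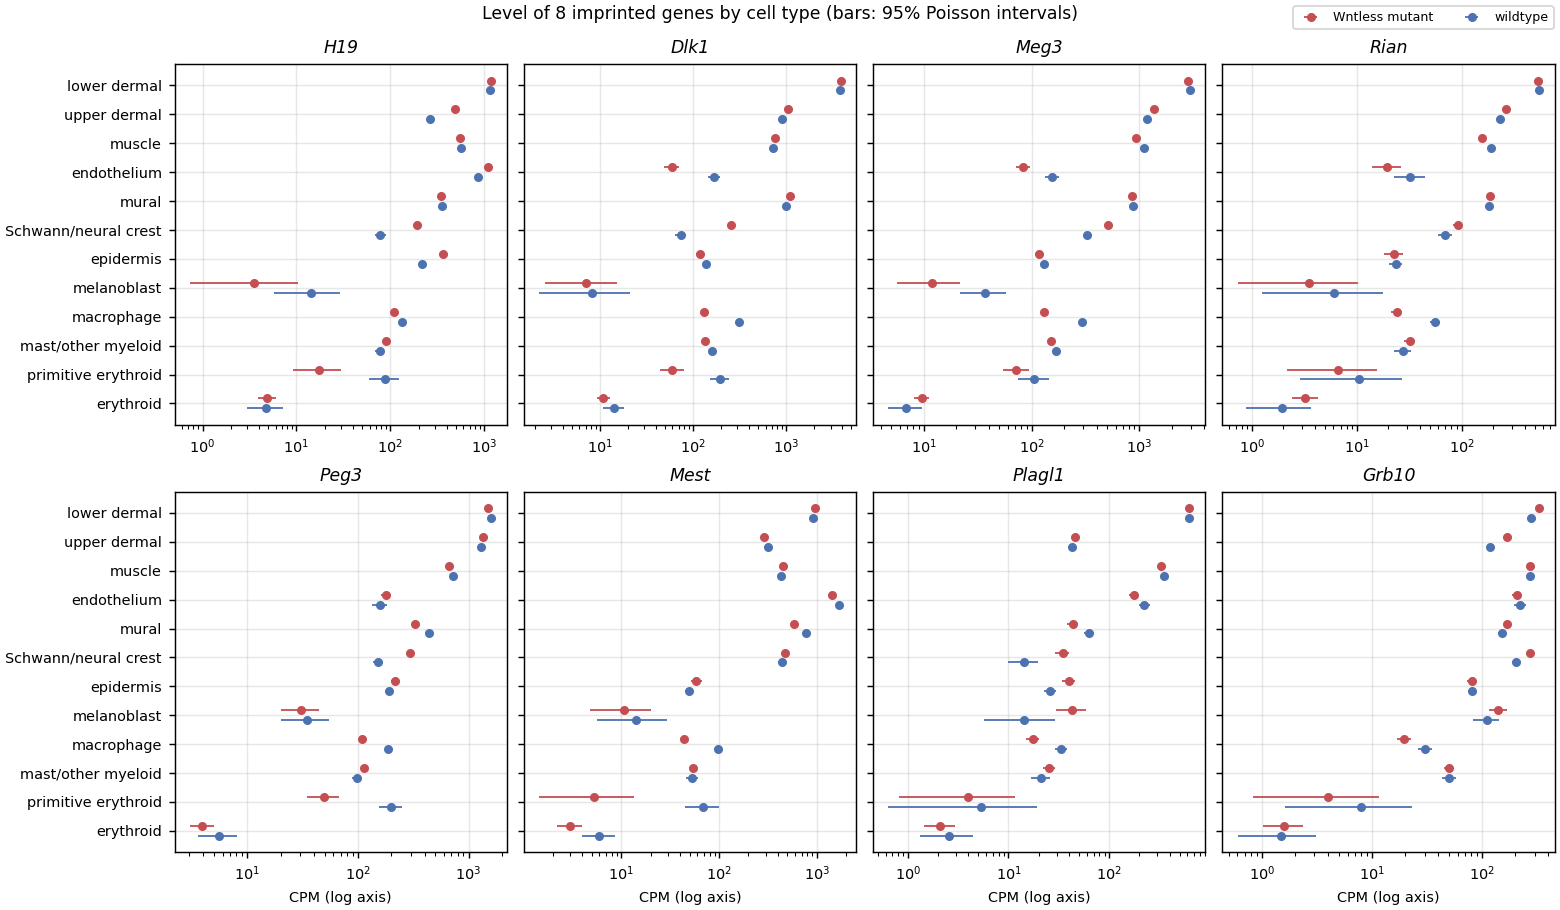
Level of each of the 8 genes (CPM, log axis) in upper and lower dermal cells and in 10 marker-defined classes of the Wntless mutant library (red) and the wildtype library (blue), with 95% Poisson intervals. Lower dermal cells had the highest level of every gene but Mest, which was highest in the endothelium-like class at 1436 CPM in the mutant, against 1678 CPM in the wildtype.

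For every member the difference between upper and lower dermal cells was larger than that between the libraries over all dermal cells. Dermal cells were called upper where they had UMIs of more of 14 upper dermal markers, such as Lef1, Twist2 and Axin2, than of 14 lower dermal markers, such as Mfap5, Col14a1 and Dpt, and lower where the reverse held. No imprinted gene is on either list. This gave 2389 upper and 2070 lower mutant cells, and 3414 upper and 1390 lower wildtype cells, with 486 mutant and 339 wildtype cells in between. In each library 7 of the 8 members were at least 1.5-fold lower in upper than in lower cells and none was higher. The share of all measured genes that were at least 1.5-fold lower was 20.7% in the mutant and 19.8% in the wildtype, and the share that were higher was 12.7% in the mutant and 14.8% in the wildtype.

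Plagl1 had the steepest step. In the mutant it had 45.9 CPM (43.9 to 48.1) in upper cells and 625 CPM (616 to 633) in lower cells, 13.6-fold lower in upper cells. In the wildtype it had 43.1 CPM (41.2 to 45.2) in upper cells and 626 CPM (613 to 639) in lower cells, a log2 ratio of -3.86, beside -3.77 in the mutant. The levels on each side were thus close in the 2 libraries. The share of cells with a UMI at 5000 UMIs was 17.1% of upper and 81.3% of lower cells in the mutant, and 13.8% of upper and 84.0% of lower cells in the wildtype, while macrophage-like cells had 3.14% in the mutant and 8.15% in the wildtype.

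Dlk1 and Mest had the next steepest steps in the mutant, while in the wildtype H19 came second. Dlk1 had 1057 CPM in upper and 3849 CPM in lower mutant cells, a log2 ratio of -1.86, and 902 CPM in upper and 3782 CPM in lower wildtype cells, a log2 ratio of -2.07. Mest had 290 CPM in upper and 946 CPM in lower mutant cells, a log2 ratio of -1.71, and 317 CPM in upper and 913 CPM in lower wildtype cells, a log2 ratio of -1.52. Mest was thus the member whose step was larger in the mutant library.

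The steps of H19, Meg3, Rian and Grb10, like those of Dlk1, Plagl1 and Peg3, were smaller in the mutant than in the wildtype, a difference that was not tested. For H19 the levels were 488 CPM in upper and 1184 CPM in lower mutant cells, a log2 ratio of -1.28, against 266 CPM in upper and 1163 CPM in lower wildtype cells, a log2 ratio of -2.13. Meg3 had a log2 ratio of -1.05 in the mutant and -1.32 in the wildtype, and Rian -1.01 in the mutant and -1.22 in the wildtype. Grb10 had 170 CPM in upper and 326 CPM in lower mutant cells, a log2 ratio of -0.94, against 117 CPM in upper and 278 CPM in lower wildtype cells, a log2 ratio of -1.25. Peg3 stood apart from the rest with log2 ratios of -0.13 in the mutant and -0.30 in the wildtype, both within 1.5-fold.

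Along 7 steps of the difference between lower and upper marker counts, the members rose in different shapes. Plagl1 had 32.5, 31.7, 54.4, 157, 394, 674 and 898 CPM in the mutant over the 7 steps, in order of the number of lower markers, with 118 cells in the smallest bin. In the wildtype it had 24.4, 27.4, 85.3, 211, 448, 686 and 898 CPM, with 292 cells in the smallest bin. Plagl1 was nearly level over the 2 most upper bins and higher at each step after them. H19 climbed earlier and then levelled off, with 349, 395, 548, 820, 1123, 1224 and 1218 CPM in the mutant and 139, 225, 460, 781, 1132, 1186 and 1188 CPM in the wildtype. Peg3 peaked midway, at 1560 CPM in the mutant where cells had 1 to 2 more lower than upper markers and at 1725 CPM in the wildtype where the counts were equal.

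**Figure D2:**
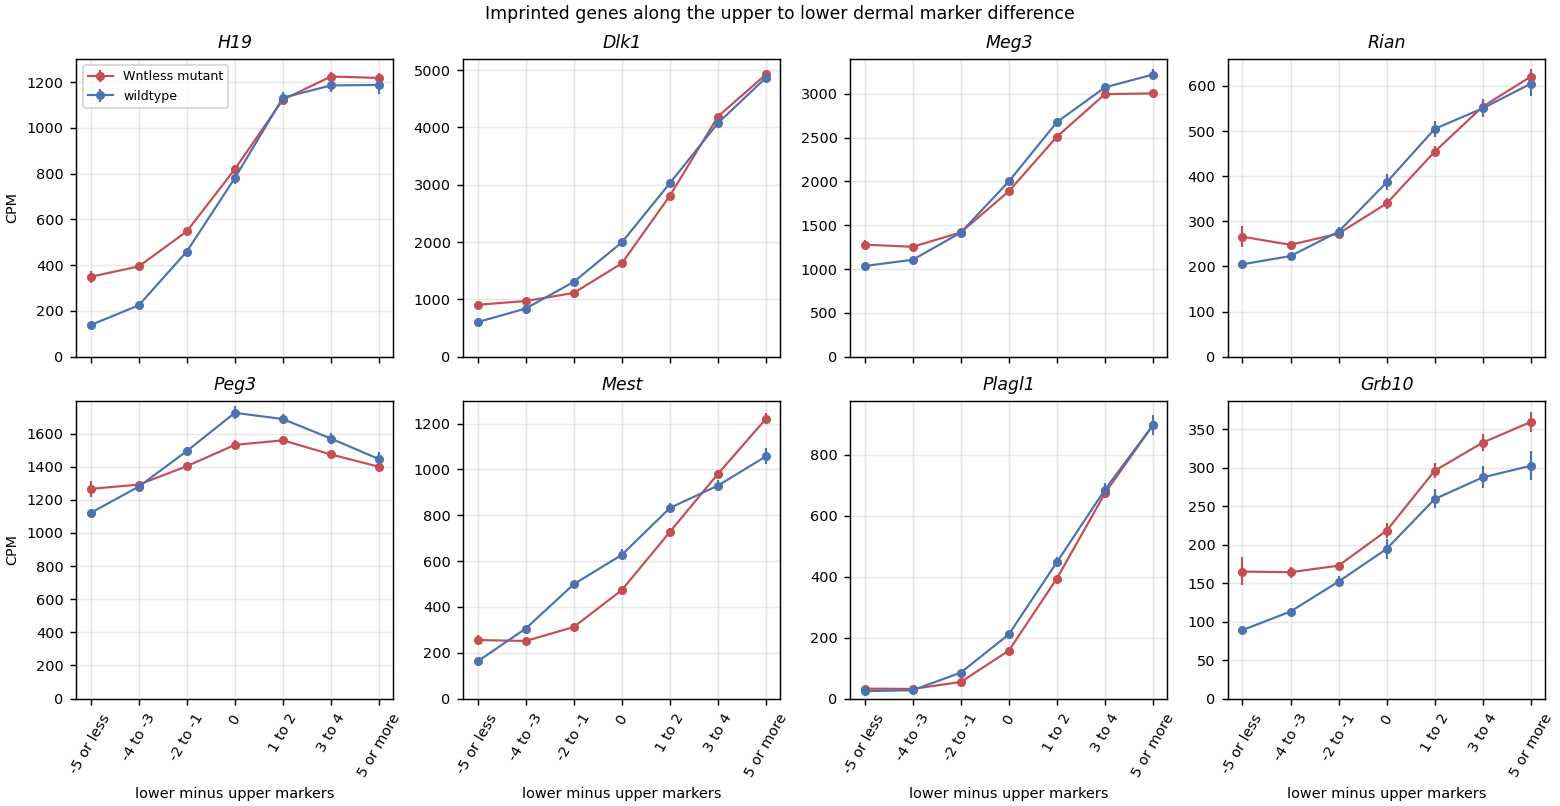
Level of each gene (CPM, linear axis from 0) in dermal list cells binned by the number of lower minus upper markers with a UMI at 5000 UMIs, for the Wntless mutant library (red) and the wildtype library (blue), with 95% Poisson intervals. H19 and Grb10 of the mutant lie above the wildtype at the upper end, at 349 against 139 CPM and 165 against 89.0 CPM, and Plagl1 of both libraries ends at 898 CPM.

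Within upper cells H19 was again the member that differed most between the libraries. Its 488 CPM (481 to 495) in mutant upper cells, against 266 CPM (261 to 271) in wildtype upper cells, is a log2 ratio of 0.88 (0.84 to 0.91), and at equal depth 78.9% of mutant and 57.0% of wildtype upper cells had a UMI. It was the only member at least 1.5-fold apart, with 8.67% of 14277 measured genes higher in the mutant upper cells and 7.38% lower. Grb10 followed with a log2 ratio of 0.54 (0.48 to 0.59), with 170 CPM in the mutant, against 117 CPM in the wildtype. The log2 ratios of Dlk1, Meg3, Rian, Plagl1 and Peg3 were 0.23, 0.21, 0.18, 0.09 and 0.07, and that of Mest was -0.13.

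Within lower cells no member reached 1.5-fold, with 7.41% of 14067 measured genes higher in the mutant and 2.85% lower. H19 had 1184 CPM in mutant lower cells and 1163 CPM in wildtype lower cells, a log2 ratio of 0.03 (0.00 to 0.05). Grb10 was the most different, with 326 CPM in mutant and 278 CPM in wildtype lower cells and a log2 ratio of 0.23 (0.18 to 0.28). The other 6 log2 ratios lay between -0.10 for Peg3 and 0.05 for Mest. Lower cells made up 2070 of 4945 mutant cells and 1390 of 5143 wildtype cells of 5000 UMIs or more, and the part of this mix in the pooled dermal values was not tested. At the same marker bins the gaps between the libraries went both ways, but a bin need not hold like cells in both. Of the 14 upper markers 6 are Wnt target genes, and the most upper bin held 118 mutant and 1107 wildtype cells. The bin with 1 to 2 more upper than lower markers held 1493 mutant and 908 wildtype cells. In the most upper bin Mest had 255 CPM in the mutant, against 162 CPM in the wildtype, and Dlk1 had 906 CPM in the mutant, against 604 CPM in the wildtype. Where cells had 1 to 2 more upper than lower markers, Mest had 312 CPM in the mutant, against 499 CPM in the wildtype, and Plagl1 had 54.4 CPM in the mutant, against 85.3 CPM in the wildtype.

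**Figure D3:**
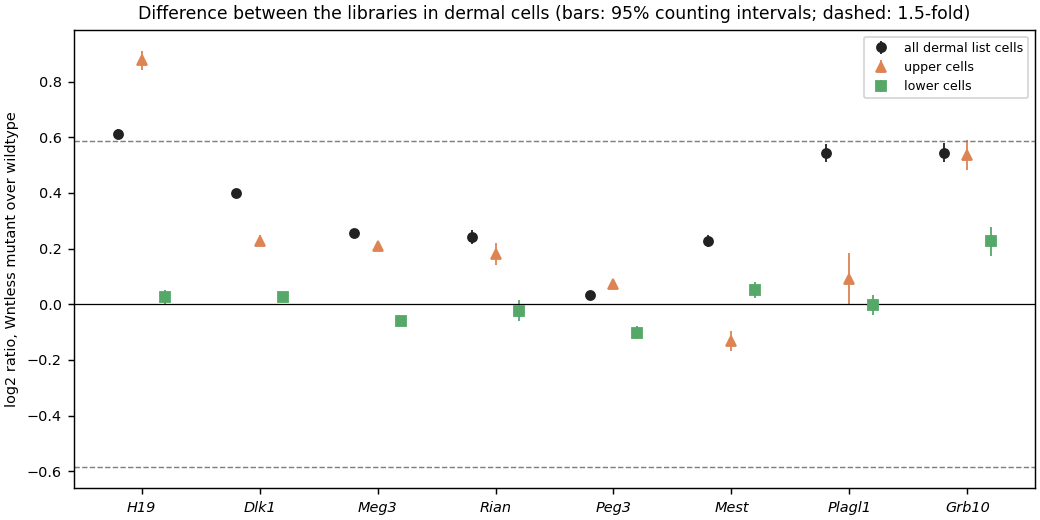
Log2 ratio of each gene, Wntless mutant over wildtype, in all dermal list cells (circles), upper cells (triangles) and lower cells (squares), with 95% counting intervals and dashed lines at 1.5-fold. H19 is past the line over all cells (0.61) and in upper cells (0.88) and near 0 in lower cells (0.03).

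The upper cells of the libraries fell into partly different clusters. Cluster 4 held 1569 mutant and 78 wildtype dermal list cells, and cluster 5, led by Foxd1, Gal, Sox18, Ptch1 and Sox2, held 12 mutant and 1503 wildtype cells. H19 had 488 CPM in the mutant cells of cluster 4, and in the wildtype cells of cluster 5 it had 196 CPM. Outside these clusters, with 1089 mutant and 1923 wildtype upper cells, H19 had 514 CPM in the mutant, against 303 CPM in the wildtype, a log2 ratio of 0.76. With upper cells called from the 8 upper markers that are not Wnt target genes the ratio was 0.96. At resolution 1.0, a cluster led by Nrgn, Hist1h1b and Hist1h1e held 15 mutant and 1062 wildtype cells. Another, led by Hist1h2ae, Hist1h2ap and Hist1h4d, held 643 mutant and 19 wildtype cells. The cells compared outside clusters 4 and 5 therefore need not be alike in the libraries. H19 was also compared in the clusters that held 100 or more listed cells of each library. Its log2 ratio was 0.86 in cluster 7 and 0.64 in cluster 1, both low in Plagl1 (30.6 to 39.6 CPM). Cluster 7 was led by Cdkn3, Pttg1 and Cenpf, and cluster 1 by histone genes such as Hist1h1b. Both are thus clusters of cycling cells and not upper dermal classes. The H19 ratio was 0.26 in cluster 0 and -0.11 in cluster 3. Plagl1 was highest in cluster 3 (881 CPM in the mutant, against 877 CPM in the wildtype).

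All 8 members were lower in cycling than in non-cycling dermal cells of both libraries, 5 of them by at least 1.5-fold in both. Dermal cells with UMIs of 3 or more of 10 cycling markers numbered 1164 in the mutant and 1985 in the wildtype. Plagl1 had 140 CPM in cycling and 350 CPM in non-cycling mutant cells, a log2 ratio of -1.33, and 84.4 CPM in cycling and 296 CPM in non-cycling wildtype cells, a log2 ratio of -1.81. H19, Dlk1, Meg3 and Mest were the others at least 1.5-fold lower in cycling cells of each library, with log2 ratios of -0.68 to -0.89 in the mutant and -0.69 to -1.04 in the wildtype. Rian had log2 ratios of -0.58 in the mutant and -0.64 in the wildtype, past 1.5-fold in the wildtype alone. Grb10 had log2 ratios of -0.50 in the mutant and -0.51 in the wildtype, and Peg3 -0.16 in the mutant and -0.11 in the wildtype. In this comparison 18.3% of measured genes in the mutant and 17.5% in the wildtype were at least 1.5-fold lower, and 9.53% in the mutant and 7.73% in the wildtype at least 1.5-fold higher, with no member among these. How much of this goes with position in the dermis was not tested.

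Over single dermal cells the closest pair was Dlk1 and Plagl1, with Pearson's r of 0.65 over 4945 mutant cells and 0.63 over 5143 wildtype cells on thinned counts. Within lower cells alone r for this pair was 0.45 in the mutant and 0.39 in the wildtype. The next pairs depended on the library, with H19 and Dlk1 at 0.47 in the mutant and 0.61 in the wildtype. Within lower cells alone H19 and Dlk1 had r of 0.13 in the mutant and 0.16 in the wildtype. Meg3 and Rian, neighbours on chromosome 12, had r of 0.41 in the mutant and 0.43 in the wildtype. Within lower cells their r was 0.33 in the mutant and 0.31 in the wildtype. Dlk1 and Peg3 had r of -0.04 in the mutant and 0.14 in the wildtype. Within lower cells it was -0.19 in the mutant and -0.21 in the wildtype. The values over all dermal cells thus include the difference between upper and lower cells. The cells of 1 library share its preparation, so these values are descriptions.

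Outside the dermis the levels of the members varied by class. Because dermal RNA can reach other cells as free RNA or in doublets, each level was set beside that of the dermal collagens Col1a1, Col1a2 and Col3a1 in the same class, both as a percentage of their level in dermal cells. In the 477 mutant and 513 wildtype muscle-like cells all 8 members stood well above the collagens, which were at 7.68% of their dermal level in the mutant and 10.1% in the wildtype. Plagl1 had 329 CPM in mutant and 352 CPM in wildtype muscle-like cells, 113% of its dermal level in the mutant and 176% in the wildtype. Grb10 had 270 CPM in mutant and 274 CPM in wildtype muscle-like cells. Between the libraries every member was within 1.5-fold there, where 4.12% of measured genes were higher in the mutant and 5.71% lower.

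Muscle-like cells with a UMI of Myog, the factor that marks differentiating myocytes, differed from those without. Plagl1 had 208 CPM in Myog-positive and 399 CPM in Myog-negative mutant cells, a log2 ratio of -0.94, and 177 CPM in Myog-positive and 461 CPM in Myog-negative wildtype cells, a log2 ratio of -1.38. The collagens were also lower in Myog-positive cells, by log2 ratios of -1.01 in the mutant and -0.70 in the wildtype. Dlk1, Peg3, H19 and Mest were lower in Myog-positive cells too, with log2 ratios of -0.63, -0.57, -0.42 and -0.39 in the mutant. In the wildtype these were -0.40, -0.47, -0.20 and -0.57. Meg3 had log2 ratios of 0.03 in the mutant and 0.20 in the wildtype, and Rian 0.11 in the mutant and 0.31 in the wildtype. Grb10 had 0.02 in the mutant and -0.06 in the wildtype. The share of all measured genes that were lower was not computed.

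Endothelium-like cells, 97 in the mutant and 64 in the wildtype, were the class richest in Mest. Mest had 1436 CPM (1386 to 1488) in the mutant, against 1678 CPM (1603 to 1756) in the wildtype, or 251% of the dermal level in the mutant and 343% in the wildtype. H19 had 1099 CPM (1055 to 1145) in mutant and 849 CPM (795 to 905) in wildtype endothelium-like cells. Plagl1 and Grb10 were also well above the collagens. Plagl1 had 177 CPM in the mutant, against 224 CPM in the wildtype, and Grb10 had 207 CPM in the mutant, against 220 CPM in the wildtype. The chromosome 12 genes behaved otherwise. Dlk1 had 58.9 CPM in the mutant, against 167 CPM in the wildtype, or 2.62% of the dermal level in the mutant and 9.83% in the wildtype, where the collagens were at 3.95% in the mutant and 8.12% in the wildtype. Meg3 at 4.15% in the mutant and 9.25% in the wildtype and Rian at 5.08% in the mutant and 10.1% in the wildtype lay as close to the collagens. Dlk1, Meg3 and Rian were at least 1.5-fold lower in the mutant endothelium-like cells, with log2 ratios of -1.50, -0.90 and -0.75, in a class in which 5.98% of measured genes were lower and 11% higher. The collagens were lower there as well, by a log2 ratio of -0.50. Without the cells in the top 8% of doublet scores Dlk1 had 12.6 CPM in the mutant, against 155 CPM in the wildtype. The collagens were then at 78.6 CPM in the mutant, against 509 CPM in the wildtype. These Dlk1 values rest on 22 UMIs from 87 mutant cells and 113 UMIs from 53 wildtype cells. At equal depth 5.81% of these mutant and 8.51% of these wildtype cells had a Dlk1 UMI, so few cells had one in either library.

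Mural-like cells, the pericytes and smooth muscle around vessels, were closer to dermal cells than endothelium-like cells were in the chromosome 12 genes. Dlk1, Meg3 and Rian were at 49.3%, 42.9% and 49.0% of their dermal level in the mutant. In the wildtype they were at 58.9%, 52.0% and 57.0%. Dlk1 had 1105 CPM in mutant and 1001 CPM in wildtype mural-like cells, and Mest 584 CPM in the mutant, against 769 CPM in the wildtype. Mest was thus at 102% of its dermal level in the mutant and 157% in the wildtype. Plagl1 was low, with 43.5 CPM in the mutant, against 63.4 CPM in the wildtype, near the collagens as a share of the dermal level. Peg3 was near them as well, at 23.2% of its dermal level in the mutant and 31.6% in the wildtype. Collagens were at 19.3% of their dermal level in the mutant and 28.7% in the wildtype mural-like cells, and no member was 1.5-fold apart, where 7.43% of measured genes were higher in the mutant and 3.94% lower.

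Schwann-like and neural crest-like cells stood out for Grb10 and Mest. Grb10 had 274 CPM in the mutant, against 205 CPM in the wildtype, and Mest had 469 CPM in the mutant, against 439 CPM in the wildtype. Of the 8 members, 5 were at least 1.5-fold higher in the mutant, where 9.65% of measured genes were, and none was lower, where 4.08% were. These were Dlk1, H19, Plagl1, Peg3 and Meg3, with log2 ratios of 1.81, 1.31, 1.28, 0.98 and 0.65. The collagens were higher there by a log2 ratio of 1.22. Without the top 8% of doublet scores the log2 ratios of the 5 genes were 0.36, 0.72, -1.08, 0.25 and 0.07, and that of the collagens 0.72. Grb10 (281 CPM in the mutant, against 204 CPM in the wildtype) and Mest (452 CPM in the mutant, against 436 CPM in the wildtype) stayed close to their levels over all cells of the class.

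In epidermis-like cells, the cells in which K14Cre acts, H19 was the main member. It had 366 CPM (349 to 385) in 164 mutant cells and 218 CPM (208 to 228) in 506 wildtype cells, a log2 ratio of 0.75 (0.65 to 0.85). At equal depth 68.8% of mutant and 45.8% of wildtype epidermis-like cells had an H19 UMI. H19 and Plagl1, at a log2 ratio of 0.61 (0.31 to 0.91) from 168 UMIs in the mutant and 210 UMIs in the wildtype, were the members at least 1.5-fold higher in a class where 7.64% of measured genes were higher and 14.9% lower. In the wildtype, cells with a UMI of the hair placode genes Dkk4, Shh, Fgf20, Bmp2 or Edar had 112 CPM of H19 and the other epidermis-like cells 282 CPM, a log2 ratio of -1.33. Among cells without such a UMI, H19 had 366 CPM in the mutant, against 282 CPM in the wildtype, a log2 ratio of 0.38, and Plagl1 had a log2 ratio of 0.47, so both were then within 1.5-fold. The split by placode genes was made after the first value had been seen. Grb10 had 81.7 CPM in the mutant, against 81.3 CPM in the wildtype, and Peg3 215 CPM in the mutant, against 190 CPM in the wildtype, both above the collagens as a share of the dermal level. Dlk1, Meg3 and Rian lay within 1.5-fold of the collagens on that scale. Without the top 8% of doublet scores Dlk1 had 11.7 CPM in the mutant, against 12.5 CPM in the wildtype. In that subset the log2 ratios of H19 and Plagl1 were 0.68 and 0.69, both past 1.5-fold. Meg3 also passed it at 0.72 (0.11 to 1.32), on 45 UMIs in the mutant and 53 in the wildtype. How many of all measured genes did so in this subset was not computed.

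**Figure D4:**
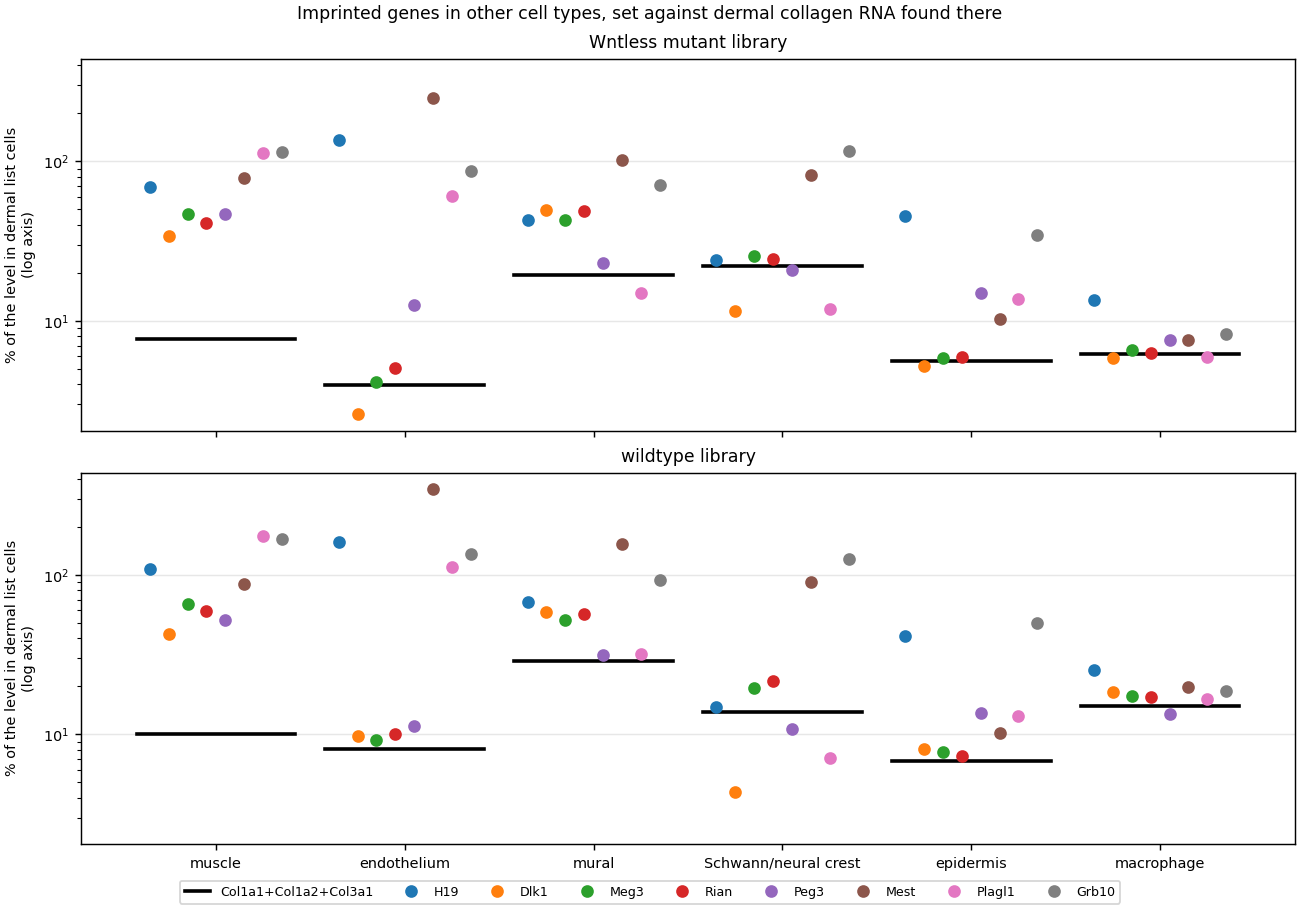
Level of each gene in 6 marker-defined classes as a percentage of its level in dermal list cells of the same library (log axis), with the black bar at the summed collagens Col1a1, Col1a2 and Col3a1, for the Wntless mutant (top) and wildtype (bottom) libraries. Mest, H19, Plagl1 and Grb10 stand far above the bar in the endothelium-like class, where Dlk1, Meg3 and Rian lie near it.

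Erythroid-like cells had at most 10.9 CPM of any member in the mutant, against 14.1 CPM in the wildtype. Rian was at least 1.5-fold higher there and Mest lower, on 51 and 47 UMIs in the mutant and 9 and 28 in the wildtype, in a class in which 4.57% of measured genes were higher and 39.7% lower. In macrophage-like cells 7 members were at least 1.5-fold lower in the mutant, H19 being the exception at a log2 ratio of -0.29, with 11.1% of measured genes lower and 4.61% higher. Their log2 ratios ran from -0.63 for Grb10 to -1.27 for Dlk1, and that of the collagens was -0.73. Without the top 8% of doublet scores H19 had 35 CPM in the mutant, against 53.8 CPM in the wildtype, no other member passed 21.3 CPM, and the log2 ratios lay between -0.62 and 0.24. In mast-like and other myeloid-like cells no member was 1.5-fold apart, with 7.99% of measured genes higher and 3.98% lower. Without the top 8% of doublet scores some members were at least 1.5-fold higher in the mutant there. How many of all measured genes were so in this subset was not computed. H19 had 30.9 CPM from 217 UMIs in the mutant, against 10.6 CPM from 35 UMIs in the wildtype, with collagens at 136 CPM in the mutant, against 73.8 CPM in the wildtype. The log2 ratios of these members were 1.54 for H19, 0.91 for Meg3, 0.86 for Rian, 0.68 for Dlk1 and 0.59 for Mest, with 7 to 57 UMIs per gene in the wildtype. At equal depth 8.04% of these mutant and 5.84% of these wildtype cells had an H19 UMI. Grb10 had 34.3 CPM in the mutant, against 39.8 CPM in the wildtype, and Peg3 9.5 CPM in the mutant, against 10.6 CPM in the wildtype. Plagl1 had 2.99 CPM in the mutant, against 2.13 CPM in the wildtype. Melanoblast-like cells, 45 in the mutant and 35 in the wildtype and so too few for a ratio, had Grb10 at 140 CPM (116 to 168) in the mutant, against 110 CPM (82.4 to 143) in the wildtype, while H19, Dlk1 and Rian had at most 14.2 CPM in each library. Primitive erythroid-like cells, 83 in the mutant and 46 in the wildtype, had 3 Grb10 UMIs in each library. Peg3 had 49.3 CPM there in the mutant, against 198 CPM in the wildtype, and Dlk1 59.9 CPM in the mutant, against 195 CPM in the wildtype. H19 had 17.3 CPM in the mutant, against 87.0 CPM in the wildtype. At equal depth 45 of 57 mutant and 23 of 28 wildtype cells of this class had no UMI of any member.

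The order of levels over the classes differed between members. For H19 it was lower dermal, endothelium-like and muscle-like cells in each library, with no overlap of the intervals between neighbours. For Plagl1 it was lower dermal, muscle-like and endothelium-like cells, and below these the intervals of upper dermal, mural-like, melanoblast-like and epidermis-like cells of the mutant each overlapped with the next. For Grb10 lower dermal cells came first in each library. In the mutant the Grb10 intervals of Schwann-like and muscle-like cells overlapped, as did those of mural-like and upper dermal cells, of upper dermal and melanoblast-like cells, and of primitive erythroid-like and erythroid-like cells. In the wildtype those of lower dermal and muscle-like cells, of endothelium-like and Schwann-like cells, of upper dermal and melanoblast-like cells, of melanoblast-like and epidermis-like cells, and of primitive erythroid-like and erythroid-like cells overlapped. Meg3 and Rian began with lower and then upper dermal cells in each library.

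Among the 4369 genes with 50 or more CPM in at least 1 class of each library, those most like each member were taken over the 24 points made by 12 classes in 2 libraries. The closest gene was an imprinted one for 3 of the 8 members, Meg3 and Rian with each other and Plagl1 with Peg10. Meg3 and Rian had Pearson's r of 0.98 on log2(CPM + 1), and among the 3 closest to each were Fbn2, with r of 0.97 for both, and the noncoding RNA B830012L14Rik, which the annotation places on the same strand of the same region at chr12:109695586-109702587. Dlk1 was most like Nfix, a transcription factor, and next Mirg, the noncoding RNA at chr12:109729764-109749460, and Lrrc17, with r of 0.97, 0.96 and 0.96. H19 was most like Ehd2, its neighbour Igf2 and Id1, with r of 0.942, 0.939 and 0.935. Plagl1 was most like Peg10, Heg1 and Phactr2, with r of 0.90 each. Grb10 was most like Igf1r, the IGF receptor whose signalling it dampens, and Nedd4, a ubiquitin ligase known to bind it, with r of 0.97 and 0.96 and Dbn1 between them. Mest was most like the basement membrane collagens Col4a2 and Col4a1 and like Cavin3, with r of 0.940, 0.938 and 0.935, and Peg3 like Col26a1, Fbn2 and Meg3, with r of 0.96, 0.96 and 0.95. The points of 1 library share depth and free RNA, and the same values chose these genes.

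A list of 44 other imprinted genes put the 8 in context. In dermal cells 41 of the 44 were measured, of which 9 were at least 1.5-fold higher in the mutant, 3 at least 1.5-fold lower and 29 between, with a median log2 ratio of 0.32. The 3 that were not measured were Kcnq1, Calcr and Snurf. Of all measured genes, 10.9% were at least 1.5-fold higher in the mutant dermal cells and 5.64% at least 1.5-fold lower. The highest ratios of the list were those of Ascl2 (1.37), Asb4 (1.13), Peg10 (1.08) and Ppp1r9a (0.95). Ascl2, a basic helix-loop-helix factor, and Asb4 rest on 100 and 48 UMIs in the mutant and on 30 and 17 in the wildtype, so their intervals are wide (0.77 to 2.01 and 0.30 to 2.02). Peg10, a gene derived from a retrotransposon, had 52.0 CPM in mutant cells and 24.5 CPM in wildtype cells. Igf2, the growth factor beside H19, had 658 CPM in mutant cells and 415 CPM in wildtype cells, a log2 ratio of 0.66 (0.64 to 0.69), close to the 0.61 of H19.

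The lowest ratios were those of Nnat (-1.65), Nap1l5 (-0.83), Snrpn (-0.77) and Qpct (-0.42). Nnat, a small membrane protein gene, had 28.1 CPM in mutant cells and 88.4 CPM in wildtype cells, 3.14-fold lower in the mutant. Nap1l5 had 1.70 CPM in the mutant, against 3.02 CPM in the wildtype, and Snrpn, a component of the splicing machinery, 6.75 CPM in the mutant, against 11.5 CPM in the wildtype. Without the clusters that held nearly 1 library, 1 of the 44 genes was at least 1.5-fold lower. In upper over lower cells, 26 of 41 measured genes of the list were at least 1.5-fold lower in the mutant and 1 was higher, with a median log2 ratio of -0.91. In the wildtype 23 of 40 were lower and 4 higher, with a median of -0.88. Beside them the medians over all measured genes were -0.03 in the mutant and 0.00 in the wildtype. Of all measured genes, 20.7% were at least 1.5-fold lower in upper cells and 12.7% higher in the mutant. In the wildtype 19.8% were lower and 14.8% higher.

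**Figure D5:**
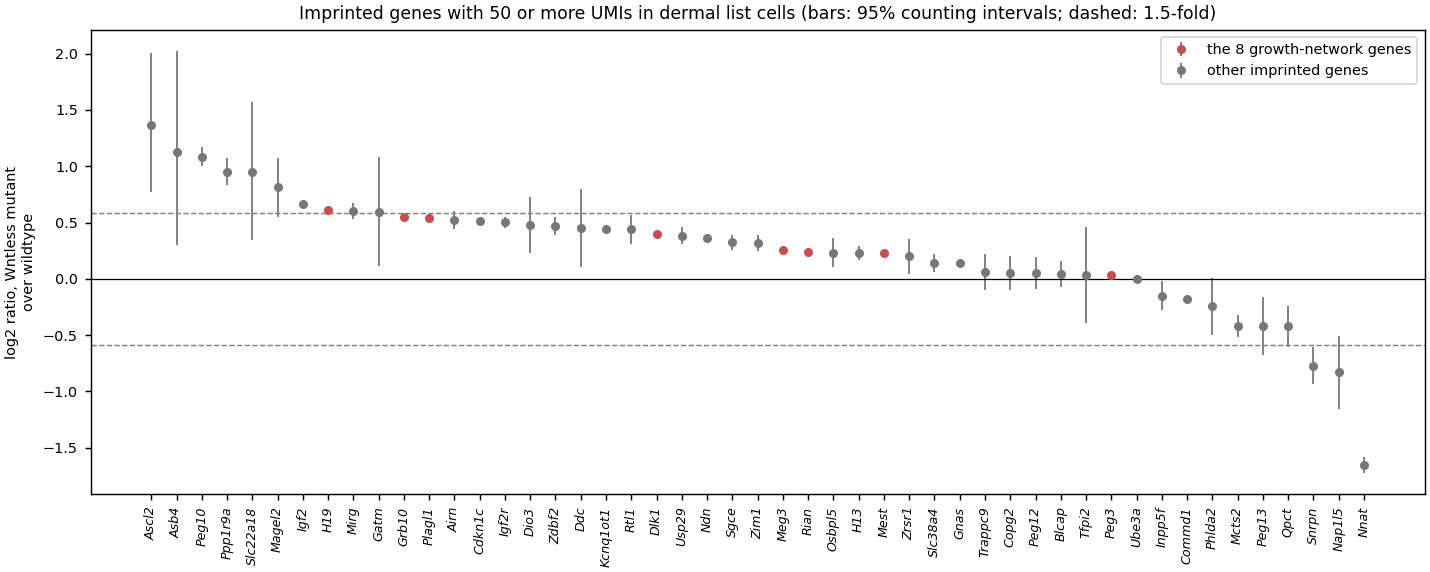
Log2 ratio, Wntless mutant over wildtype, in dermal list cells of the 8 genes (red) and of the other listed imprinted genes with at least 50 UMIs in the libraries together (grey), in descending order, with 95% counting intervals and dashed lines at 1.5-fold. Ascl2 (1.37) and Nnat (-1.65) are at the ends, and the 8 genes lie between 0.61 for H19 and 0.03 for Peg3.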

How the data were processed

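The authors deposited, per the file headers, UMI counts (whole numbers) per gene and barcode from Cell Ranger 6.1.2 for each library, with barcode, gene and dermal cell lists that give other information (names only). The build mm10 and Seurat are named in the submitters' processing notes, and how the dermal lists were made is not given in the sources used here. The mutant library held 159841679 UMIs and the wildtype library 112593376.

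All barcodes were clustered jointly with scanpy 1.11.5 and leidenalg 0.10.2 (Python 3.11.15), with 10000 counts per cell, 2000 variable genes without the imprinted genes, 30 principal components, 15 neighbours and resolution 0.5, which gave 20 clusters. A cluster was named where 3 or more markers of a class were among its top 50 genes. Names can differ from the study's own. Cluster 8, with erythroid markers and a median of 1018 UMIs, was left out of the class levels for low depth, and cluster 6, with a median of 72.8% mitochondrial UMIs, had too few markers for a name. Scrublet called 159 mutant (1.52%) and 225 wildtype (2.48%) barcodes, and none was removed. UMIs were summed per class and library. Levels have exact Poisson intervals, shares exact Clopper-Pearson intervals, and ratios exact conditional binomial intervals, checked on simulated data. Ratios needed 50 cells per library.

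The members, lists and markers were chosen with earlier results of these data known. The details of cluster naming, the marker bins, and the Myog, placode and doublet splits were chosen after the data were seen. Named genes were all members, the 4 highest and 4 lowest ratios among the other imprinted genes with 50 or more UMIs, and the 3 genes most like each member. Mirg and Igf2 come in through the likeness rule.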

Additional observations from a re-analysis of the deposited data

How the results depend on the processing

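Over all alternatives run in dermal list cells the log2 ratio, mutant over wildtype, ranged over 0.45 to 0.63 for H19, 0.33 to 0.56 for Grb10, 0.06 to 0.61 for Plagl1, 0.07 to 0.43 for Dlk1, -0.15 to 0.30 for Mest and -0.06 to 0.05 for Peg3. The number of members at least 1.5-fold higher was 1 with the authors' lists and 0 both with fibroblast-like clusters in their place and with clusters shared by the libraries weighted alike. The number of other imprinted genes at least 1.5-fold lower was 3, and 1 without clusters nearly of 1 library. Over the 64 pairs of member and named class, 8 were at least 1.5-fold higher and 11 lower, and 5 were lower without the top 8% of doublet scores. Without those cells the log2 ratio changed sign for Plagl1 in Schwann-like cells (-1.08) and for Meg3 (0.092), Rian (0.24), Plagl1 (0.23) and Grb10 (0.054) in macrophage-like cells. The other 72 recomputed counts stayed within 1.5 times their value, the 7 of 8 members lower in upper dermal cells among them. Of the recomputed values other than these counts, 411 stayed the same, 200 moved and 5 changed sign. A log2 ratio was taken to have moved where it left the counting interval of its main value. In erythroid-like cells another scaling moved all ratios by 0.40 to 0.43, and in epidermis-like cells by up to 0.11. No paired analysis was possible because each genotype has 1 library and the labels give no shared replicate number. Small classes such as melanoblast-like and primitive erythroid-like cells have wide counting intervals, and with 1 pool of embryos per genotype no difference could be set against the spread between embryos.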
